A study of Homo sapiens with 10 samples.

Results

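Camptothecin poisons topoisomerase I, the enzyme that nicks 1 DNA strand to release the supercoils that build up ahead of polymerases. The drug holds the enzyme on the nicked strand, and a replication fork that runs into such a complex can end in a double-strand break. SLFN11 is a protein known for binding stressed forks and for making cells sensitive to this drug, and the parental line studied here expresses it, per the series record.

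The comparison described here is of CCRF-CEM cells, a T lymphoblast line from a leukemia, labelled wild-type, after 100 nM camptothecin for 4 h (spelled Camtothecin in the treatment label) and after DMSO. The assay was ATAC-seq: a transposase cuts and tags DNA that is open in nuclei, and the tagged fragments are sequenced. For each library 1 list of accessible peaks was deposited. The series has 10 such lists: DMSO, 100 nM prexasertib (a CHK1 inhibitor) for 2, 4 or 6 h, and camptothecin for 4 h, each in the parental line and in a SLFN11 gene knockout of it. The labels do not say whether the knockout line is 1 clone. Per the series record, the raw data of the parental library with 4 h of prexasertib are truncated. The label of T lymphoblast could not be set against the promoters of marker genes, since no gene annotation of the build of the lists was used here.

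Peaks on chromosomes 1 to 22 and X of all 10 lists were merged into 35505 regions. Positions below are on build hg19 and counted from 1. The members of this comparison are the 22789 regions called, that is, holding a peak, in the parental camptothecin list, the parental DMSO list or both. With 1 library per group there is no replicate and no test. Every difference below is between 2 libraries, and each interval, at 95% confidence, covers counting error over regions only.

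The camptothecin list held 21997 peaks in 21432 regions and the DMSO list 15921 peaks in 15697 regions. The DNA under peaks came to 12.7 Mb and 8.99 Mb. The background pileup, the lowest coverage expected at a site and the measure of depth that could be recovered from the lists, was 1.45 with camptothecin and 1.63 with DMSO. The treated library was thus the shallower by this measure. Median peak width was 516 bp with camptothecin and 514 bp with DMSO. These medians are over different sets of peaks, because most peaks found with the drug alone were short.

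Camptothecin was followed by far more new accessible regions than lost ones. Called with camptothecin and not with DMSO (gained) were 7092 regions, 33.1% (32.5% to 33.7%) of the camptothecin list. Of the 19808 regions that some list of the series called and the DMSO list did not, 35.8% were gained. Called with DMSO and not with camptothecin (lost) were 1357 regions, 8.64% of the DMSO list. That made 5.23 regions gained per region lost. The ratio was 15.04 at a −log10 q of at least 10 in both lists. By that setting 4694 regions counted as gained, those with a DMSO peak below 10 among them. Of the 7092, only 911 lay between 10 and 20 with camptothecin and 142 at 20 or more. The ratio was 2.71 where peaks had to overlap by 50% of each. When both lists were cut to 15921 peaks it was 1.00, which is near 1 by construction. In knockout cells the same drug gave 15.8% gained and 19.2% lost, and 4 h of prexasertib in parental cells, against the same DMSO list, gave 20.1% and 13.4%.

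The 14340 regions called in both lists (shared) also changed. Summit height is the number of fragments piled up at the highest summit of a region divided by the background pileup of its library. Its median at shared regions was 15.9 with DMSO and 29.1 with camptothecin, and the median of the changes was 1.72-fold, or 0.78 on the log2 scale (0.77 to 0.79). Of 14314 shared regions with a height in both lists, 13111 were higher with camptothecin, 91.6% (91.1% to 92.05%). At least 2-fold higher were 4512 regions (31.5%) and at least 2-fold lower 19 (0.133%). In knockout cells 18 shared regions (0.112%) were at least 2-fold higher and 211 (1.31%) at least 2-fold lower. With 4 h of prexasertib in parental cells the shares were 15.2% and 0.147%.

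The level of the background sets part of that size. Pileup before any division rose by a median log2 of 0.61, and height over the local background, the deposited fold, by 0.33. The local background at the summit, each over the background of its library, was itself higher with camptothecin by 0.47. The lists do not show how much of this local background is coverage of the peaks themselves. Whether coverage beside the peaks rose was thus not tested. The parental DMSO library, the denominator of every change here, was the lowest of the 10 libraries at 50.1% (49.2% to 51.01%) of the 11565 regions with a height in all 10 lists. Median heights there were 18.4 with DMSO and 34.6 with camptothecin, and prexasertib gave 20.3 at 2 h, 29.4 at 4 h and 39.4 at 6 h. In knockout cells it was 25.1 with DMSO and 21.8 with camptothecin, so the camptothecin library of parental cells stood above both.

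**Figure D1:**
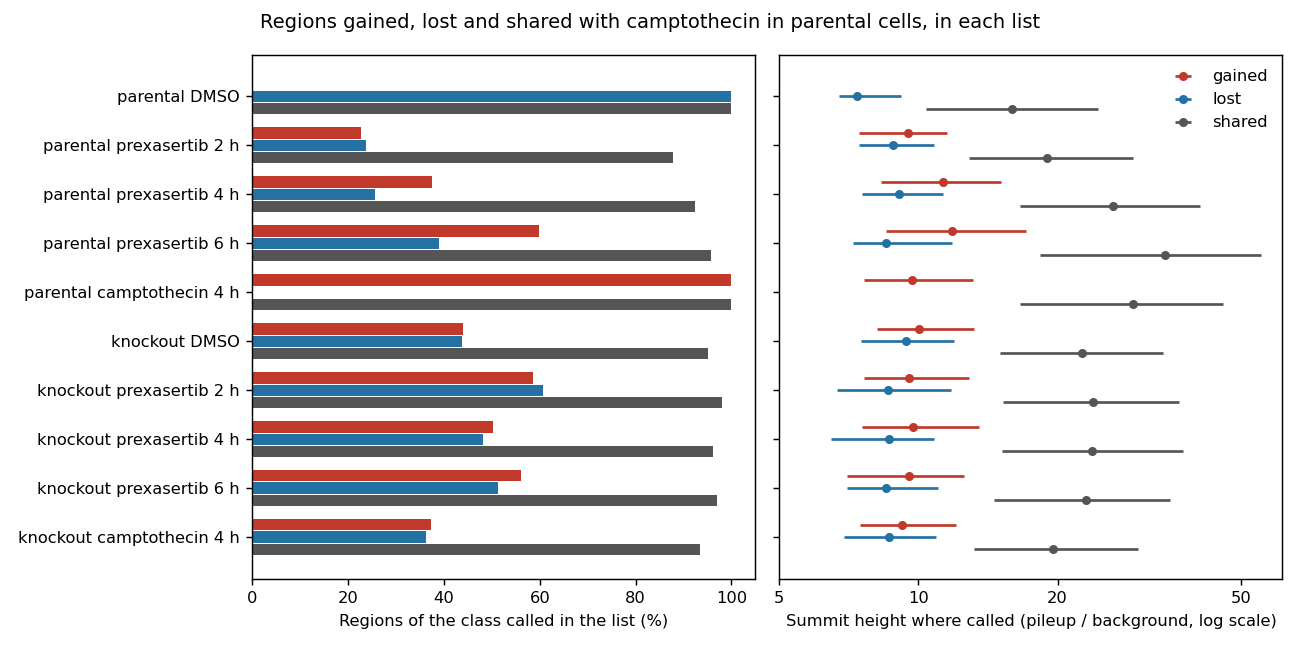
For the regions gained, lost and shared with camptothecin in parental cells (red, blue, grey), the left panel gives the share called in each of the 10 lists and the right panel the summit height where called, as median and interquartile range on a log axis. Shared regions reach a median height of 29.1 with camptothecin, gained regions 9.68, and the 2 classes of change are called in the knockout DMSO list at 43.9% and 43.8%.

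Gained regions were low, short and simple. With camptothecin their median height was 9.68 (interquartile range 7.61 to 13.1), against 29.1 at shared regions. Their median width was 294 bp, against 671 bp, and 7.50% of them held more than 1 summit, against 30.6%. Lost regions had a median height of 7.35 in the DMSO list, against 15.9 at shared regions there, a median width of 282 bp, against 546 bp, and 2.06% with more than 1 summit, against 21.3%. Both classes thus came mostly from the weak end of the lists. A region enters a list at a −log10 q of 2, and 1377 gained regions (19.4%) lay between 2 and 3, just inside. Between 3 and 5 lay 2298, between 5 and 10 lay 2364, between 10 and 20 lay 911, and 142 were at 20 or more. Of the lost regions, 37 lay between 10 and 20 in the DMSO list and 5 were at 20 or more.

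The stronger a gained region was, the more often cells that lack SLFN11 showed it as well. Of those between 2 and 3, 54.5% (51.9% to 57.2%) were called in at least 1 of the 5 knockout lists. The share was 67.5% between 3 and 5, 87.1% between 5 and 10, 95.7% between 10 and 20, and 96.5% (92.0% to 98.8%) at 20 or more. Shared regions between 2 and 3 were called there at 94.9%. By definition shared regions are called in a second list and gained regions are missing from it. The class rule thus favours a lower share for gained regions. In no other list of the series were 1219 gained regions (17.2%), with a median width of 236 bp, and 509 of these lay between 2 and 3. Among lost regions the share was about the same, 239 (17.6%), with a median width of 248 bp. At the other end, 647 gained regions (9.12%) were called in all 8 other lists and missing with parental DMSO alone, at a median height of 15.9. The knockout DMSO list held 3116 of the gained regions, 43.9% (42.8% to 45.1%), and 595 of the lost ones, 43.8% (41.2% to 46.5%). Over all regions not called with parental DMSO that list held 28.9% (28.3% to 29.5%), and over all regions called with it 90.7% (90.2% to 91.1%). The share of gained regions was thus above that of all regions that could be gained, and the share of lost regions far below that of all regions that could be lost.

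The 8 gained regions with the highest −log10 q were not typical of the class. Their peaks were 182 to 340 bp wide with camptothecin, and several were very high. At chr5:134263416-134263686, a peak of 270 bp reached a height of 457 and a −log10 q of 267. It was called in 6 of the 10 lists at heights from 354 to 505, and 4 lists, parental DMSO among them, had no peak there. At chr18:18516087-18516362, the height was 477 with camptothecin, and the 8 lists that called it gave 428 to 508. At chr4:49112404-49112863, it was 252, within the 212 to 295 of the 8 lists that called it. These peaks were thus either missing or of nearly full height from list to list. The sites on chromosomes 18, 4, X and 10 lie next to centromeres, stretches known to be rich in repeats.

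The others by this rule lay at chr2:89869742-89869948, at chrX:61720873-61721217, at chr15:36380946-36381169, at chr10:42545975-42546159, and at chr9:99002267-99002480. Each was called in 3 or 4 of the 10 lists. The chromosome 10 and chromosome 9 regions were called in the parental lists of camptothecin and of 4 and 6 h of prexasertib and in no knockout list. At the chromosome 9 region the height was 49.1 with camptothecin and 41.5 and 51.2 after 4 and 6 h of prexasertib. The region on chromosome 15 stood at 54.0 with camptothecin, at 25.7 and 41.3 after 4 and 6 h of prexasertib, and at 16.7 in knockout cells after 4 h of prexasertib. Among the 142 gained regions with a −log10 q of at least 20, 32 (22.5%) were under 300 bp wide, against 98 of 7929 shared regions (1.24%) of that strength. What these short, strong peaks are was not tested.

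Wider gained regions that no knockout list held were looked for after the values were seen, by asking for at least 500 bp. This rule left 50 regions, and the 8 with the highest −log10 q were looked at. The highest summit was at chr11:2398845-2399649, at 26.3 and 805 bp with camptothecin, and it was called with 4 and 6 h of prexasertib at 21.9 and 24.9. A second, chr11:66277854-66278385, had heights of 16.6 with camptothecin, 10.6 after 4 h and 14.4 after 6 h of prexasertib. In the camptothecin list alone were chr19:10223563-10224068, at 13.8, chr15:75358102-75358688, at 11.8, chr15:56500051-56500639, at 10.4, and chr11:108638733-108639355, at 9.68. All of these summits were under the median height of shared regions with camptothecin.

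Loss was rare among strong peaks. The strongest lost region, at chr2:88124413-88124859, had a height of 223 with DMSO and was called in 8 lists at 163 to 257, and only the camptothecin and 6 h prexasertib lists of parental cells lacked it. At chr12:34833816-34834843, the height was 51.4 with DMSO and 39.3 to 55.2 over the 8 lists that called it. Both again kept a similar height wherever they were called. A different pattern was seen at chr8:85677080-85677676. Its parental height was 19.6 with DMSO and 18.3 after 2 h of prexasertib, then 8.30 after 4 h and 5.25 after 6 h, and it was not called with camptothecin. In knockout cells it stood at 8.15 with DMSO and was not called with camptothecin either. The other lost regions by this rule were at chr7:57997195-57997592 (62.4 with DMSO), at chr19:24571427-24572019 (30.0) and chr19:48423313-48423717 (23.3), at chr22:18878082-18878639 (18.4), and at chr16:33875630-33876021 (22.04).

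By height over the background of the library, shared regions of middle to high strength at the start rose most. A baseline taken from the parental DMSO list also enters the change, so the classes were drawn from the knockout DMSO list as well, which has no part in the change. In 5 classes of knockout DMSO height the median log2 height change was 0.36 (0.30 to 0.40) in the lowest, then 0.54, 0.79 and 0.91 (0.89 to 0.93), and 0.86 in the highest. With the parental DMSO height it was 0.65, 0.71, 0.82, 0.88 and 0.77. Both orders rise as far as the last class but 1, which covered heights of 20.7 to 31.4 in the knockout list, and turn down in the strongest. In that class 41.9% of regions were at least 2-fold higher, against 13.02% in the lowest. For height over the local background the knockout classes gave 0.20, 0.28, 0.39, 0.40 and 0.29, and the parental classes 0.40, 0.36, 0.38, 0.36 and 0.23. By that measure the knockout classes again rose as far as the last class but 1, but the strongest class fell below the middle one. With the parental baseline the weakest class was the highest. A region under the calling threshold in either list has no height, so the weakest classes lack the regions that fell out of the camptothecin list.

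Gain and loss followed the same baseline. Of the regions missing from the parental DMSO list, those called in the knockout DMSO list were gained at 40.1% in its lowest height class, and at 63.6%, 79.4%, 84.7% and 79.3% in the others, the last 2 over 176 and 29 regions. Of the regions present in the parental DMSO list, 26.4% were lost in the lowest class, 9.60% in the second, 2.45% in the third, then 0.42%, and 0.10% in the highest. Regions strong in untreated knockout cells were thus almost never lost from parental cells, and most of those not yet called there appeared.

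**Figure D2:**
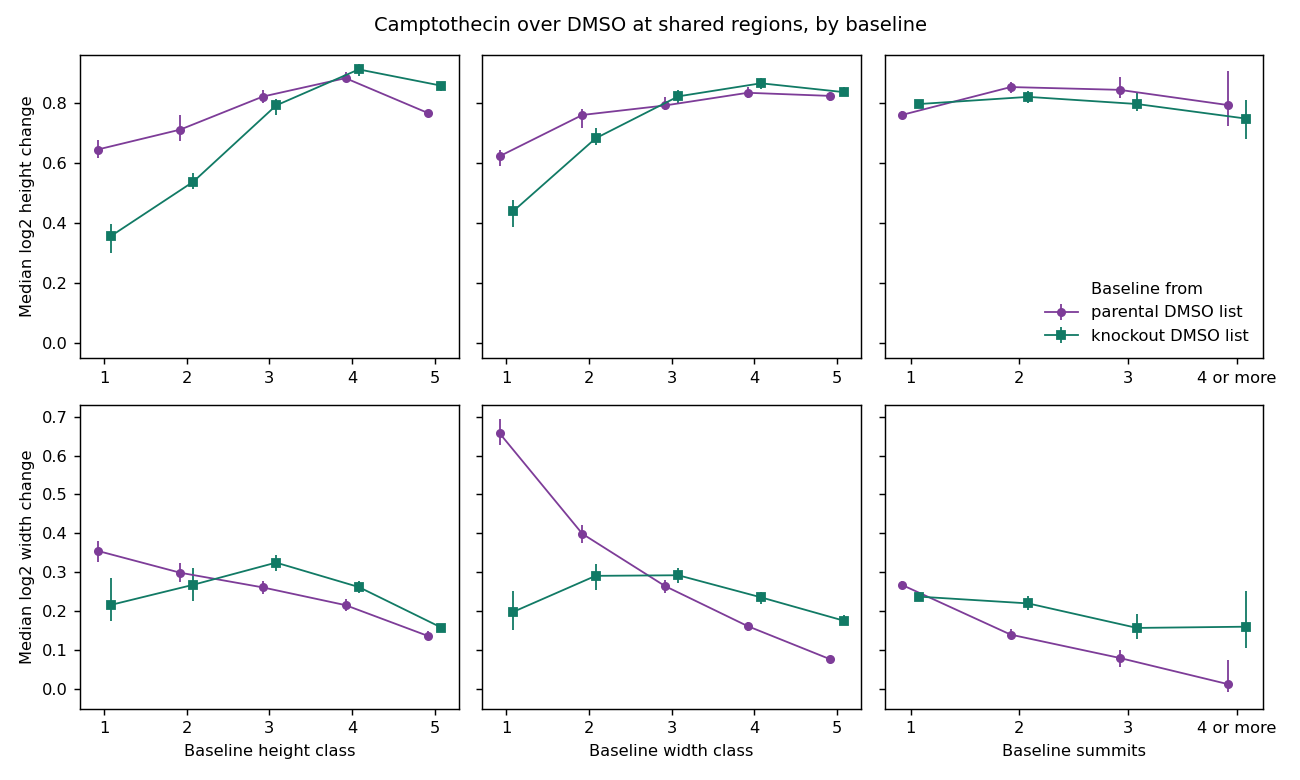
Median log2 change of height (top) and width (bottom) with camptothecin over DMSO at shared regions, by class of baseline height, baseline width and number of baseline summits, with intervals at 95% confidence; the baseline is from the parental DMSO list (purple circles) or the knockout DMSO list (green squares). The steep fall of the width change with baseline width, from 0.66 to 0.08, is seen with the parental baseline and not with the knockout baseline, where it runs from 0.20 to 0.18.

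Peaks widened less evenly than they rose. The median log2 width change of the longest peak was 0.22 (0.22 to 0.23), or 1.17-fold, and 10543 of 14340 shared regions were wider, 73.5% (72.8% to 74.2%). At least 1.5-fold wider were 3237 (22.6%) and at least 1.5-fold narrower 777 (5.42%). The knockout lists gave 7.79% and 11.4%, and a median of -0.03, and 4 h of prexasertib in parental cells gave 14.7% and 8.01%. Of 14314 shared regions with a height in both lists, 1397 (9.76%) were at least 1.5-fold wider and 2-fold higher. Widened to that degree with a summit no higher than with DMSO were 138 (0.964%). At least 2-fold higher and no wider were 681 (4.76%), and 491 (3.43%) were higher while at least 1.5-fold narrower. Most shared regions were higher and most were wider, so many are both by those shares alone. Whether width and height moved together beyond that was not tested.

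Short DMSO peaks gave the largest width changes, and the choice of baseline decided how large. By parental DMSO width the median log2 width change was 0.66 (0.63 to 0.69) in the shortest class, of 199 to 309 bp, and 0.08 in the longest, of 790 bp or more. By knockout DMSO width it was 0.20 in the shortest, 0.29 in each of the next 2, then 0.24, and 0.18 in the longest. With the independent baseline no class of width stood far from the others. Heights by knockout DMSO width rose from 0.44 in the shortest class to 0.87 in the last but 1, and were at 0.84 in the longest.

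Edges more often lay further out than in, on the left as on the right. In 13751 regions with 1 peak in both lists, the left edge lay further out by a median of 41 bp (39 to 43) and the right edge by 39 bp (37 to 41). Both edges were further out in 47.2% and both further in in 8.37%, while in 40.6% (39.8% to 41.5%) 1 edge lay further out and the other further in. The larger of the 2 moves of a region had a median of 107 bp outward and the smaller a median of -1 bp. In knockout cells these were 37 and -54 bp, and with 4 h of prexasertib in parental cells 69 and -23 bp. A larger and a smaller move differ by construction, so growth mainly on 1 side was not tested. In knockout cells both edges were further out in 19.1% and both further in in 25.2%, with median left and right moves of -3 and -5 bp. The summits stayed close to where they were: over 8763 regions with 1 summit in both lists the median shift was 38 bp (37 to 39), and in knockout cells it was 41 bp.

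More shared regions had added summits with camptothecin than had fewer, and the same held for prexasertib in parental cells. Of 11279 shared regions with 1 summit in the DMSO list, 2516 had several with camptothecin, 22.3% (21.5% to 23.1%), against 14.8% (14.1% to 15.4%) in knockout cells. With 4 h of prexasertib in parental cells, against the same DMSO list, the share was 20.7% (19.9% to 21.5%). Over all shared regions 3065 had more summits with camptothecin and 1415 fewer, and with prexasertib 2663 and 1470. In knockout cells the order was turned, at 2137 and 2533. In 997 of the 2516 regions, 39.6% (37.7% to 41.6%), a summit lay outside the span of the DMSO peak. The share was 21.2% (19.4% to 23.2%) in knockout cells and 31.3% (29.3% to 33.3%) with prexasertib in parental cells. The farthest summit with camptothecin was a median of 280 bp from the DMSO summit in parental cells. New summits were thus often on DNA that was not called before, at the side of an existing peak. Of 213 regions with several DMSO peaks, 116 had become 1 peak, 54.5% (47.5% to 61.3%), and in knockout cells the share was 61.8% (55.4% to 68.0%).

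The number of summits in the knockout DMSO list made little difference to height over the background of the library. By knockout DMSO summits the median log2 height change was 0.80 for regions with 1 summit, 0.82 with 2, 0.80 with 3 and 0.75 (0.68 to 0.81) with 4 or more. The intervals of these classes overlap from one to the next. Height over the local background rose by 0.34, 0.34, 0.30 and 0.20 in the same classes. The width changes were 0.24, 0.22, 0.16 and 0.16 in the same order. With the parental DMSO count, which shares its list with the change, the width changes were 0.27, 0.14, 0.08 and 0.01. Height changes with that count were 0.76 (0.76 to 0.77), 0.85 (0.84 to 0.87), 0.85 and 0.79. The intervals for 1 and 2 summits do not overlap there. Lost regions were almost all of 1 summit in the DMSO list: 1329 of 1357.

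The 8 shared regions that widened most, among those with a DMSO −log10 q of at least 10, were all short at the start. They measured 204 to 291 bp with DMSO and 709 to 1471 bp with camptothecin, and 6 of the 8 were shortest, or tied as shortest, with parental DMSO of all 10 lists. The rule favours regions short in that library, which was shortest at 29.9% of the 11603 regions called in all 10 lists. At chr15:43809499-43811169, parental cells had a longest peak of 252 bp with DMSO and of 1471 bp with camptothecin, and prexasertib gave 505 bp at 2 h, 699 bp at 4 h and 1354 bp at 6 h. Knockout cells had 1274 bp with DMSO and 701 bp with camptothecin, and 1492, 1287 and 1412 bp with prexasertib. Untreated knockout cells thus already had the long peak, and their camptothecin list had a shorter one. Its height in parental cells went from 17.1 to 23.5 with camptothecin, a smaller change than the median of shared regions.

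At chr14:100771904-100773355 the longest peak was 286 bp with DMSO and 1282 bp with camptothecin in parental cells, and 1424 and 965 bp in knockout cells. Prexasertib in parental cells gave 1028, 456 and 286 bp there at 2, 4 and 6 h, the opposite order to the chromosome 15 region. At chr1:28832148-28833302, the knockout peaks stayed short: 291 bp grew to 1008 bp in parental cells with camptothecin, while the knockout lists read 442 bp with DMSO and 467 bp with camptothecin. Its height went from 20.2 to 42.9 in parental cells and from 18.2 to 17.8 in knockout cells. At chr5:132361742-132362599, width went from 223 to 799 bp and height from 13.5 to 38.05. Of these 8, it had the largest height change, 2.83-fold. The others were at chr8:145202107-145203322 (220 to 879 bp), chr4:113444233-113445653 (204 to 709 bp), chr13:46785496-46786433 (268 to 926 bp), and chr19:7459510-7460365 (243 to 830 bp).

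The 8 regions raised most, with a −log10 q of at least 10 in both lists, went up 3.60-fold to 4.16-fold. All 8 had their lowest height of the 10 lists in parental DMSO. A rule on the rise over that library favours this. Over the 11565 regions with a height in all 10 lists it was the lowest at 50.1%. At chr19:13905806-13906734, the parental height was 15.3 with DMSO and 63.6 with camptothecin, and 34.5, 48.3 and 59.7 at 2, 4 and 6 h of prexasertib. In knockout cells the heights were 27.6 with DMSO, 35.2, 31.9 and 39.1 with prexasertib and 24.1 with camptothecin. Camptothecin thus gave the highest value of all 10 there and the lowest of the knockout line. At chr16:1727958-1728787, DMSO and camptothecin gave 15.9 and 60.9 in parental and 29.5 and 33.3 in knockout cells. At chr17:62222966-62224108, they gave 19.0 and 71.2 in parental and 37.0 and 27.6 in knockout cells. This last peak did not widen: it measured 1011 bp with DMSO and 933 bp with camptothecin.

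Heights with camptothecin at these 8 ran from 46.3 to 94.8, and in the knockout lists with camptothecin from 17.8 to 40.2, so the ranges do not overlap. The rule chose the regions by the parental change, so this is a description. The remaining regions were chr6:33678854-33679781, chr15:84898223-84899201, chr1:144519630-144520682, chr12:122277255-122277891, and chr16:29465226-29466464. The chromosome 12 region also widened, from 285 to 537 bp, and in knockout cells went from 483 to 270 bp.

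**Figure D3:**
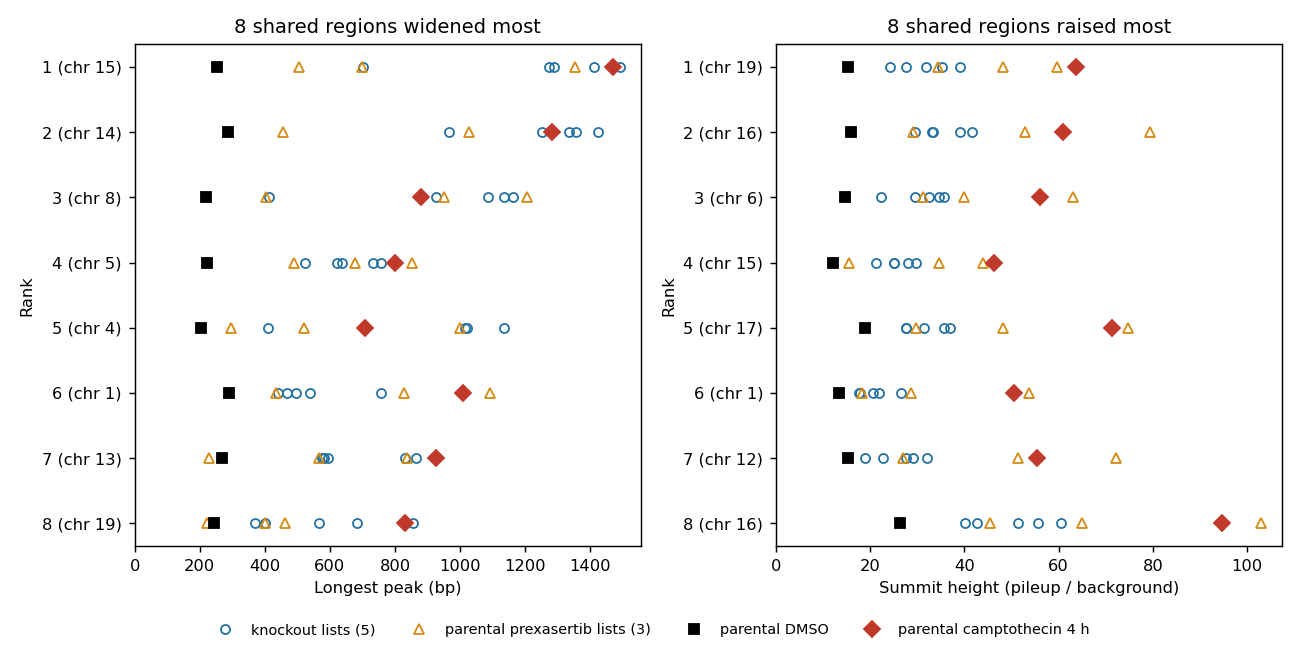
Longest peak in bp at the 8 shared regions widened most (left) and summit height at the 8 raised most (right), 1 row per region with its chromosome and 1 symbol per list: parental DMSO (black square), parental camptothecin (red diamond), parental prexasertib (orange triangles) and knockout lists (blue circles). The parental DMSO height is the lowest of 10 in all 8 rows on the right, which a rule on the rise over DMSO favours. On the left the knockout widths reach that of parental camptothecin in 5 rows.

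Few strong regions went down. The 8 lowered most, again with a −log10 q of at least 10 in both lists, fell by 0.65 to 0.99 on the log2 scale. The first, chr4:49098789-49099385, went from a height of 196 with DMSO to 98.9 with camptothecin, and stood at 208, 132 and 100.4 over the prexasertib series. Its width went from 567 to 177 bp, and in knockout cells its height was 163 with DMSO and 210 with camptothecin. At chr11:101482971-101484174, the parental heights were 28.8, 28.4, 12.8 and 10.5 from DMSO to 6 h of prexasertib and 17.3 with camptothecin. At chr4:167501185-167501779, they were 27.5, 25.7, 19.6 and 17.7, and 14.5 with camptothecin, while the peak kept its width, at 546 and 529 bp. At chr5:119467781-119468717, they were 24.5, 22.3, 16.6 and 13.1, and 14.5 with camptothecin. The rule fixed that camptothecin is below DMSO at these regions, and the prexasertib heights are set against the same DMSO library, so both are descriptions.

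The others lowered by this rule were at chr9:69703096-69703801, chr18:10026-10577, chr8:87526493-87527246, and chr16:34021815-34022369. At the chromosome 8 region camptothecin gave 17.3 against 27.5 with DMSO, and the prexasertib heights were 16.9, 24.9 and 29.5 at 2, 4 and 6 h. By the count of knockout DMSO regions within 500 kb either side, 7 of the 8 had 2 to 9 neighbours and the first had 21. The median over all shared regions was 11, so the upper counts of the 7 are not far from typical.

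Height, width, gain and loss all differed with crowding by other accessible regions. It was counted for each region as the number of regions of the knockout DMSO list within 500 kb either side, in 5 classes from 0 to 5 neighbours up to 19 to 48. The median log2 height change was 0.52 (0.50 to 0.55) in the least crowded class, then 0.72, 0.78 and 0.85, and 0.98 (0.96 to 1.00) in the most crowded. The width change was 0.10, 0.17, 0.23, 0.28 and 0.35 (0.33 to 0.36). Of regions not called with DMSO, 28.0% (26.7% to 29.3%) were gained in the least crowded class and 45.1% (43.5% to 46.8%) in the most crowded. Of regions called with DMSO, 16.3% (15.03% to 17.6%) were lost in the first and 2.45% (1.95% to 3.05%) in the last. All 4 measures moved without a break from class to class.

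The local background moved with crowding as well. Its log2 change at the summit, each over the background of its library, was 0.27 in the least crowded and 0.62 in the most crowded class. Height over that local background still rose by 0.25 and 0.39, so the difference between the 2 ends was 0.14 by this measure against 0.46 by height. Summit height and the local background at the summit thus both rose more in crowded stretches. How much of the order of heights comes from the local background was not tested beyond these values.

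In knockout cells heights differed little by crowding, loss was again lower in crowded stretches, and gain was lower there too. Classes by the parental DMSO list gave median log2 height changes with camptothecin of -0.18 in the least and -0.21 in the most crowded class, and 17.2% and 14.4% gained. Loss was 20.6% (19.4% to 21.9%) and 14.1% (13.1% to 15.3%). Parental cells after 4 h of prexasertib, against the same DMSO list, had 0.39 and 0.75 for height and 14.9% and 27.3% for gain. The difference between genotypes has 1 library behind each value and was not tested.

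Crowded regions are also taller at baseline, so crowding was set out within height. Both were cut into 3 classes of about equal size. In the lowest class of knockout DMSO height the median log2 change was 0.30 (0.28 to 0.35) in the least crowded class and 0.69 (0.62 to 0.76) in the most crowded. In the middle class of height it was 0.65 (0.61 to 0.67) and 1.01 (0.98 to 1.04), and in the highest 0.75 (0.74 to 0.77) and 0.97 (0.95 to 0.99). By this measure crowded regions rose more at each level of height, and the difference was smallest among the tallest peaks. Over the local background the changes were 0.17 and 0.35 in the lowest class of height and 0.34 and 0.47 in the middle. In the highest they were 0.30 and 0.35, so the differences were smaller by that measure. Loss in the lowest class of height was 21.8% in the least crowded and 8.60% in the most crowded class.

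**Figure D4:**
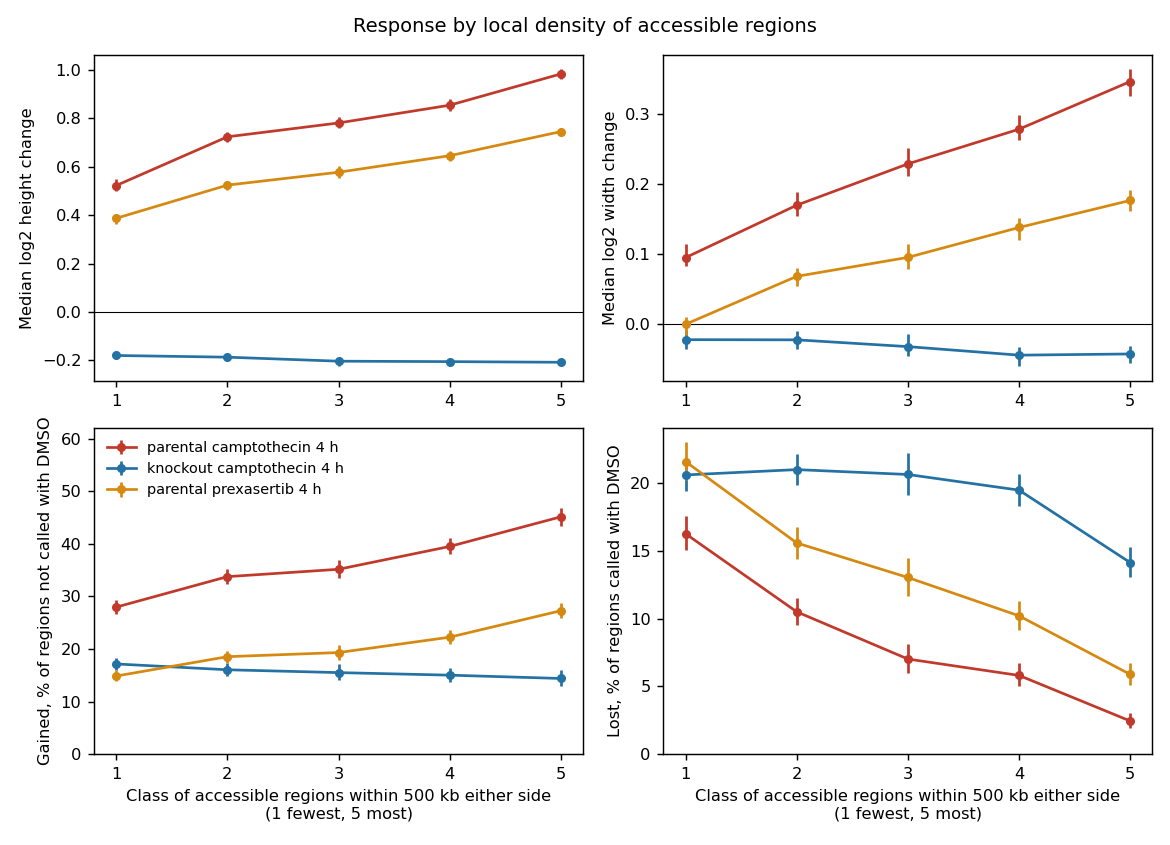
Median log2 change of height and width at shared regions (top) and shares of regions gained and lost (bottom) in 5 classes of the number of accessible regions within 500 kb either side, with intervals at 95% confidence. Crowding is counted in the knockout DMSO list for the 2 parental comparisons and in the parental DMSO list for the knockout one. With camptothecin in parental cells (red) the height change goes from 0.52 to 0.98 and loss from 16.3% to 2.45%, while knockout heights (blue) stay between -0.18 and -0.21.

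Chromosomes differed as well. Chromosomes 19, 22 and 17, which are known to be rich in genes, had the highest median log2 height changes, 1.02, 1.01 and 1.00, and chromosome 16 followed at 0.91. Chromosomes 4, 8, X, 18 and 13 had the lowest, 0.57, 0.62, 0.64, 0.66 and 0.66, and chromosomes 4, 18 and 13 are known to be poor in genes. The median number of neighbours of shared regions was 23, 16, 18 and 16 on chromosomes 19, 22, 17 and 16, and 7, 8, 7, 6 and 7 on chromosomes 4, 8, X, 18 and 13. Chromosomes at the top were thus the more crowded. The median height change was above 0 on every one of the 23 chromosomes. Width changes ran from 0.11 on chromosome 18 to 0.37 on chromosome 22.

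Loss and gain differed by chromosome too. On chromosome 19, 2.17% (1.31% to 3.37%) of the DMSO regions were lost, and 48.3% (44.7% to 51.8%) of the regions not called with DMSO were gained. On chromosome 18 the shares were 17.9% (13.5% to 22.9%) and 33.3% (28.8% to 37.9%), and on chromosome 4 12.1% and 29.4%. For both shares the intervals of chromosomes 19 and 18 do not overlap. In knockout cells the median height changes of the chromosomes lay between -0.24 and -0.13.

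**Figure D5:**
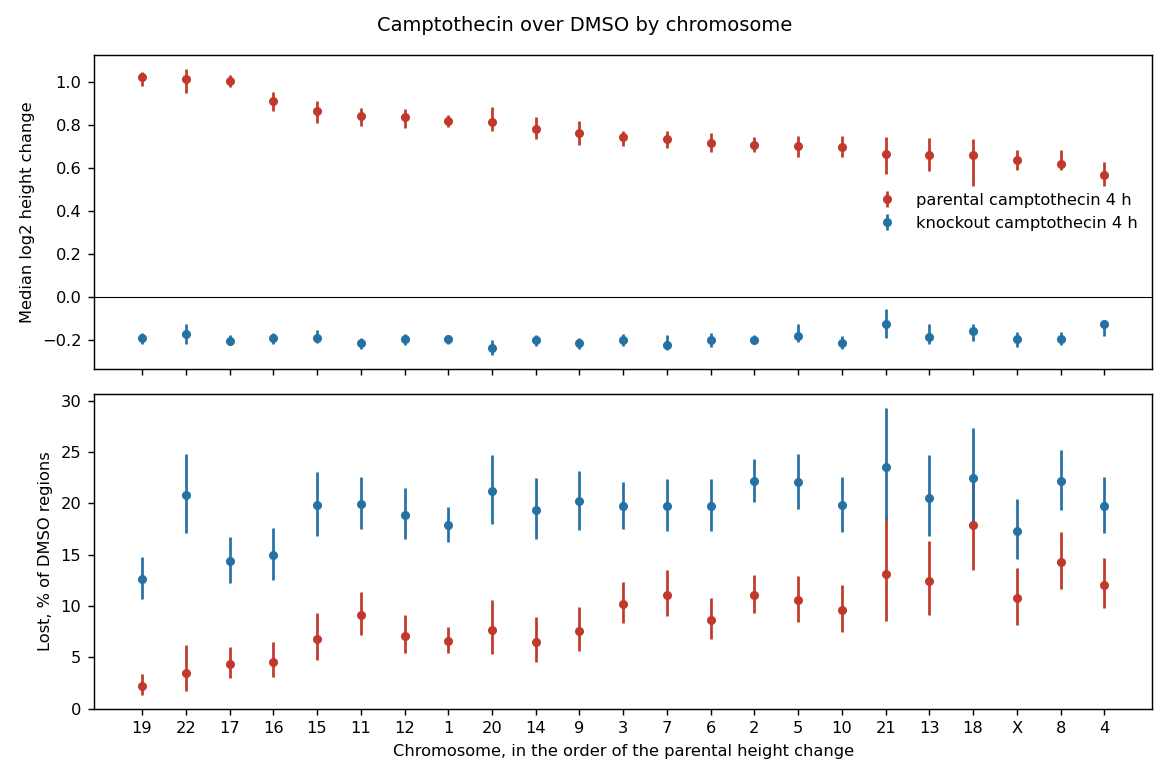
Median log2 height change at shared regions (top) and share of DMSO regions lost (bottom) with camptothecin, by chromosome, in parental (red) and knockout cells (blue), with intervals at 95% confidence; chromosomes are in the order of the parental height change. Parental medians go from 1.02 on chromosome 19 to 0.57 on chromosome 4, and parental loss is lowest on chromosome 19, at 2.17%.

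Within chromosomes, windows of 1 Mb showed where changes gathered. Of 2605 windows with a region of either list, 1749 had more regions gained than lost and 297 more lost than gained. The most gained in a window was 20, at chr14:105000001-106000000, chr19:18000001-19000000, and chr20:62000001-63000000, which had 18, 22 and 23 DMSO regions and lost 0, 0 and 1. Next came chr17:40000001-41000000, with 19 gained, 0 lost and a median log2 height change of 1.10. In the first 3 the number of regions called thus went from 18 to 38, from 22 to 42 and from 23 to 42. The most lost in a window was 5, at chr2:213000001-214000000, where 2 were gained, and at chr20:29000001-30000000, where 0 were gained.

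Among the 147 windows with at least 15 shared regions, the median log2 height change was above 0 in all 147 and at least 1, a doubling, in 66. The highest was 1.34, at chr19:11000001-12000000, over 23 regions that ranged from 0.50 to 1.69. Next came chr19:45000001-46000000 at 1.25 and chr7:100000001-101000000 at 1.24. The neighbouring windows chr6:26000001-27000000 and chr6:27000001-28000000 followed, with 1.24 over 36 regions and 1.23 over 19, and the second had the largest median width change of the windows named here, 0.75. In knockout cells these 2 windows were at -0.06 and -0.39. The lowest values were 0.03 at chr4:49000001-50000000, and 0.22 at chr16:46000001-47000000, both next to centromeres, and the value after these was 0.64. In knockout cells both were above 0, at 0.25 and 0.27, where every chromosome had a median under 0.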

How the data were processed

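Peaks of 10 ATAC-seq libraries, 1 per group, were used as deposited. Per the submitters' processing notes, the build was hg19 and the tools were MACS2 2.1.2, Picard 2.9.2, SAMtools 1.8, BWA 0.7.17, Trimmomatic 0.39 and Trim Galore 0.6.2, named there with no role. Each deposited peak carries the authors' MACS2 fold enrichment over the local background, −log10 p, −log10 q and summit, and a score that was not used here. The smallest −log10 q in any list was 2.00.

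Lines of equal start and end were joined as 1 peak with several summits, and 1.75% to 2.64% of peaks, on other sequences, were left out. Peaks of all 10 lists that overlap by at least 1 bp were merged. Pileup and local background were recovered for 99.7% to 99.8% of summits as the whole pileup whose fold and Poisson p match the deposited values within 0.001. The smallest local background of a library is its background pileup and the measure of its depth. Width is that of the longest peak of a region. Shares have exact Clopper-Pearson intervals and medians order-statistic intervals, at 95%. Regions are not replicates and PCR fragments are not independent, so intervals cover counting error only, and no test was run.

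Members and lists were chosen with earlier results of these data known. Named regions are the 8 gained or lost with the highest −log10 q, the 8 with the largest width change (DMSO −log10 q of at least 10) and the 8 raised and the 8 lowered most (at least 10 in both lists). Gene lists and sequences were not used, because the annotation at hand is of build GRCh38. The alternatives were a −log10 q of 10, reciprocal overlap of 50%, regions merged from the 2 lists only, lists of equal length, thinning, other widths and other divisors. Pileup recovery was tested on values computed from known pileups. Gain, loss, widening and raising were tested on a copy of the parental DMSO list with known changes. The other steps were not tested in this way. Python 3.11.15, numpy 2.4.6, pandas 2.3.3, scipy 1.17.1 and matplotlib 3.10.9 were used.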

Additional observations from a re-analysis of the deposited data

Results flagged for a closer look

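The effect of camptothecin went one way in parental cells and the other way in knockout cells in 3 summaries. The median log2 height change was 0.78 in parental and -0.20 in knockout cells, the median log2 width change 0.224 and -0.0331, and the number of regions gained minus lost 5735 and -1363. Each value rests on 1 treated and 1 DMSO library, and the difference was not tested.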

How the results depend on the processing

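With 1 library per group no test was run, and no replicate could be left out. No paired analysis was possible because each group has 1 library. The count of regions depends on the lists' lengths: cut to 15921 peaks each, they gave 2786 gained and 2776 lost, which are near equal by construction. At a −log10 q of at least 10 in both lists the counts were 4694 and 312, with fewer regions called. Regions with a weaker peak in the other list count as gained or lost there. At a reciprocal overlap of 50% lost regions came to 3562 and gained to 9638. Merging the 2 lists alone gave 7486 and 1485, and thinning DMSO to the background of the camptothecin library gave medians of 7322 and 1188 over 20 draws. Thinning can only take calls from the DMSO list, so by construction gained regions could only increase and lost ones only decrease. The median log2 height change was above 0 throughout: 0.33 over the local background, 0.61 for pileup before division, 0.83 at a −log10 q of at least 10, and 0.85 at regions called in all 10 lists. The width change was 0.19 at a −log10 q of at least 10, 0.23 by total called length and 0.23 with 1 peak and 1 summit. Chosen after seeing the data, other measures of crowding gave height differences between its ends of 0.43 within 250 kb and 0.44 with the parental DMSO list, against 0.46, and height over the local background gave 0.14.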

Other observations

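Gained regions lay closer to other regions of the knockout DMSO list than lost ones did. The median distance to the nearest other region of the knockout DMSO list was 24.3 kb (23.4 to 25.5) for gained, 40.2 kb (37.2 to 46.1) for lost, 28.2 kb (27.7 to 28.9) for shared regions and 29.5 kb (28.6 to 30.7) for regions called in neither list. Within 5 kb of one were 10.9% of gained, 8.92% of lost and 6.499% of shared regions, and 9.96% (9.45% to 10.5%) of those called in neither list, so the share of gained regions is near that background.

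Shared regions that lost summits with camptothecin rose more in height than the others. Their median log2 height change was 0.92 (0.89 to 0.95) over 1411 regions, against 0.77 where the number stayed the same and 0.76 where it grew. The width changes had the opposite order, at 0.08, 0.21 and 0.37. This was not particular to the comparison. Fewer summits also went with the largest height change after 4 h of prexasertib in parental cells, 0.66, against 0.57 and 0.59. In knockout cells with camptothecin the heights were -0.16, -0.19 and -0.26. The width changes there were -0.14, -0.03 and 0.07, and with prexasertib -0.03, 0.09 and 0.21.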
